A study of Mus musculus with 18 samples.

Results

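The genes described here are Wsb2, Bdh1, Lgi1 and Man2a2 in the hearts of mice kept in hypoxia, and they were chosen by symbol from the authors' deposited list of genes that differ between hypoxia and normoxia at postnatal day 30 (P30). The list has 1524 probes, with p-values reaching 0.05 before adjustment, and a probe here is the probe set of 1 transcript cluster on the Clariom S mouse array. All 4 genes have 1 probe each in it. For 3 of the 4 each sample's value was read, and for Man2a2 only the authors' P30 averages and SDs. Hypoxia meant 11% oxygen, and hypoxic hearts were set against normoxic ones at postnatal day 8 (P8) and again at P30. There were 4 normoxic samples (numbers 13, 22, 23 and 24) and 5 hypoxic samples (4 to 8) at P8, and 4 normoxic samples (2 to 5) and 5 hypoxic samples (1 to 5) at P30. No strain, sex or allele is named in the labels. Nothing in them ties a sample to 1 animal, so the p-values cover only variation among the samples, which may be technical.

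The genes have unrelated products. Wsb2 is a protein of WD repeats with a SOCS box, the motif by which such proteins join a cullin ubiquitin ligase and bring substrates to it. Bdh1 is the mitochondrial enzyme that interconverts the ketone bodies 3-hydroxybutyrate and acetoacetate, which the heart burns as fuel. Lgi1 is a secreted protein of leucine-rich repeats, best known in the brain, where it links the receptors Adam22 and Adam23 at synapses and mutations in the human gene cause a form of epilepsy. Man2a2 is a Golgi mannosidase that trims mannose from N-glycans so that complex glycans can be built, a step it shares with its paralog Man2a1.

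Array medians were 7.38 to 8.07 on the log2 scale over 4704 probes with values per sample. At P8 the hypoxic arrays (7.87 to 8.07) lay above the normoxic ones (7.49 to 7.69), so centring arrays on their medians lowers every P8 difference by 0.37, and it raises every P30 difference by 0.16. These probes are 21.2% of the 22205 tested on the array and are a selection, with group means at least 0.46 apart in each. Of 14 cardiomyocyte markers, Ttn, Ckmt2 and Ryr2 had values, with sample means of 13.15 to 17.34. Hypoxic P8 samples 4 and 5 stood apart from the other 3 in neutrophil markers (means 6.14 and 6.86 against 4.85 to 5.29), and P8 results are therefore also given without them.

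At P30, Wsb2 signal was higher in hypoxia, and Lgi1, Bdh1 and Man2a2 signals were lower. The P30 values chose the genes, so they are a description and carry no test here. As a background, limma called 0 of 4704 probes (0%) at P30 at an adjusted p of 0.05, and 656 (13.9%) had an unadjusted p under 0.05. Groups did not overlap for 5.38% of probes at P30, with hypoxia higher in 1.98% and lower in 3.4%. By the q of the authors' deposited table, a single probe of the array (0.0045%) was under 0.05 at P30, that of Wsb2, against 3.42% at P8. In bulk heart RNA, fewer cells of a type and less RNA per cell cannot be told apart.

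**Figure D1:**
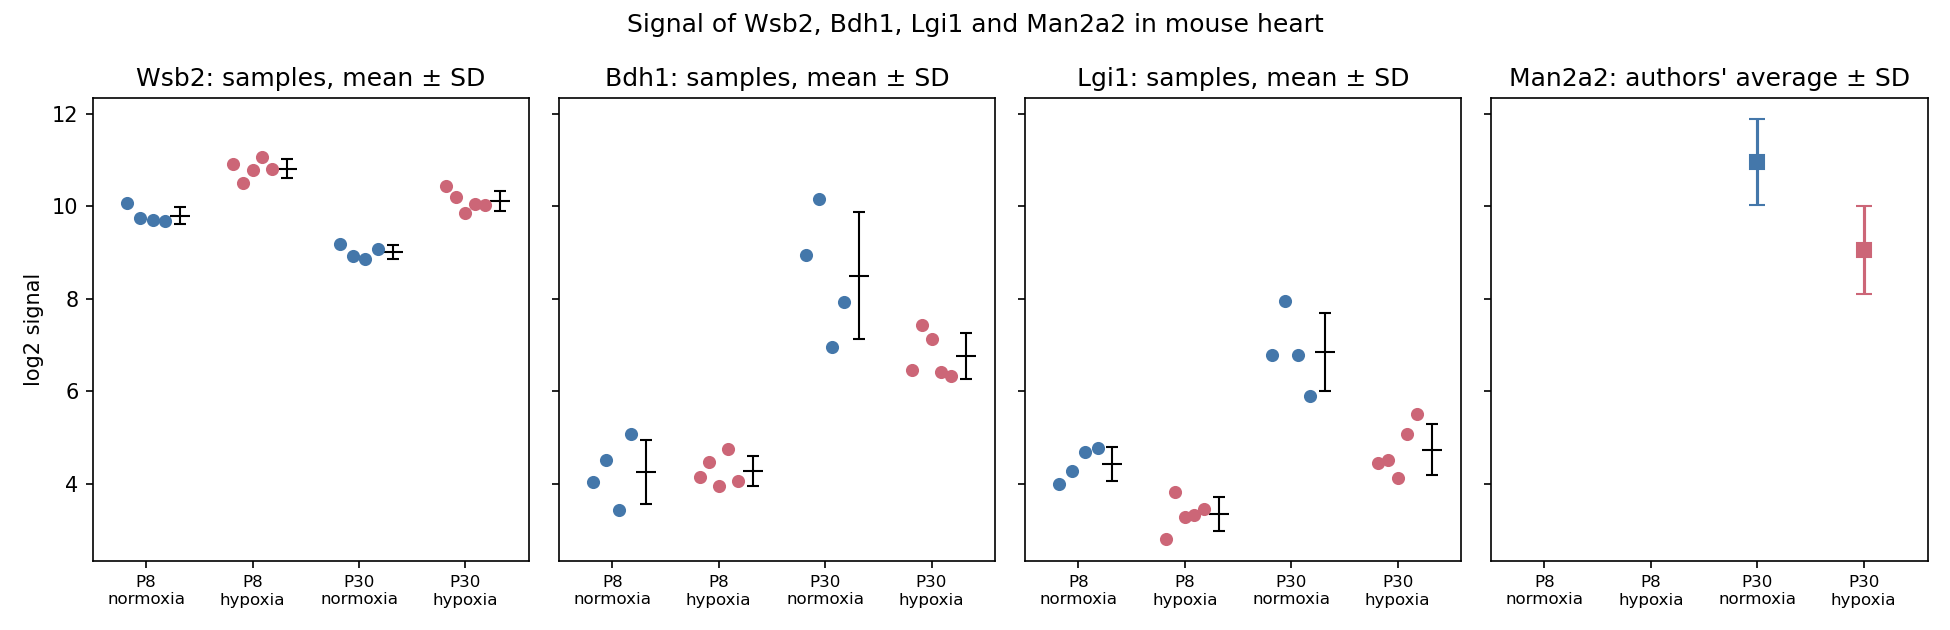
Log2 signal (vertical axis) of the 4 genes by group (horizontal axis). Points are samples, black bars are group means ± SD, and squares for Man2a2 are the authors' P30 averages ± SD. Hypoxic samples of Wsb2 lie above the normoxic ones at both ages, those of Lgi1 lie below them at both ages, and those of Bdh1 overlap with them at both ages.

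Wsb2 signal in the P30 normoxic samples was 9.19, 8.92, 8.86 and 9.08 in numbers 2 to 5. In the P30 hypoxic samples it was 10.45, 10.21, 9.85, 10.06 and 10.04 in numbers 1 to 5. Every hypoxic sample was above every normoxic one, with a gap of 0.66 between the ranges. The means were 9.01 ± 0.15 (SD, n = 4) and 10.12 ± 0.22 (SD, n = 5), a log2 difference of 1.11 ± 0.19 (SE), or 2.16-fold. Each SE of a difference here is limma's, from a spread pooled over the 4 groups and drawn toward that of all probes. Wsb2 stood at place 1 of 1524 by p in the authors' deposited table (signed fold 2.12, p = 8.33e-07, q = 0.0185), but at place 144 by size of fold. Its SDs were the smallest of the 4 genes in both P30 groups. Leaving out single samples gave 1.03 to 1.18.

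Wsb2 also rose in hypoxia at P8, where the samples compared were not those whose values chose the genes. Signal was 10.08, 9.74, 9.70 and 9.69 in normoxic samples 13, 22, 23 and 24. It was 10.92, 10.50, 10.79, 11.07 and 10.82 in hypoxic samples 4 to 8. The groups did not overlap, as was so for 25.3% of all probes (16.4% with hypoxia higher), and normoxic sample 13 was the closest to the hypoxic ones. The log2 difference was 1.02 ± 0.19 (SE), with a 95% interval of 0.62 to 1.41 and a limma adjusted p of 0.00339, with 22205 tests counted. That fit takes its spread from all 4 groups, P30 samples included, and with only the P8 groups in the fit the adjusted p was 0.0310. Limma called 15.2% of the 4704 probes higher at P8, and 50.7% had an unadjusted p under 0.05. The share called higher depends on the scaling, at 7.21% with quantile normalization and 6.85% with arrays centred. The call held in 14 of 15 alternatives and ended when each array was centred on its median (0.65, adjusted p = 0.0755, the highest of a range that began at 7.18e-04). With quantile normalization it held only just (0.73, limma adjusted p = 0.0494). Both rescalings made the difference smaller, so the call depends on the scaling. Without hypoxic samples 4 and 5 the difference was 1.09 (limma adjusted p = 0.00705).

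The RefSeq start region of Wsb2, on GRCm38.p6 at chr5:117357055-117357354 (plus strand, 250 bases before to 50 after the start), is rich in G and C. It has 79.0% G and C and 40 CpG, more CpG than 96.1% of 32851 such windows. It was searched on both strands for ACGTG and GCGTG, the cores of sites bound by the hypoxia-inducible factor HIF, and neither was found. At least 1 of them is in 43.8% of all windows. The window is shown, with no capitals as there was no match, because Wsb2 was the 1 gene of the 3 called at P8.
Wsb2: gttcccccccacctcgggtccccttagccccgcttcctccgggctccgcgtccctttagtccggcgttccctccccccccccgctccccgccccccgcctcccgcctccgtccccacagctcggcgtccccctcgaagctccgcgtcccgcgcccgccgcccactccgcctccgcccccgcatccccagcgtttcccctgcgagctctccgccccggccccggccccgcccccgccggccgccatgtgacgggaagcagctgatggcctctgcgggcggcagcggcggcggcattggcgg

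With age, Wsb2 signal was lower in both oxygen groups. The P30 mean lay below the P8 mean by 0.79 in normoxia and by 0.70 in hypoxia, and in neither case did the ranges overlap, although the hypoxic ranges were only 0.05 apart. Over all 4704 probes the median P30 minus P8 difference was -0.105 in normoxia and -0.499 in hypoxia. The difference of Wsb2 in hypoxia depends on the scaling, at -0.37 with quantile normalization and -0.225 with arrays centred. The order of means from low to high was P30 normoxia, P8 normoxia (9.80), P30 hypoxia (10.12) and P8 hypoxia (10.82). Of these neighbours, only the P8 normoxic (9.69 to 10.08) and P30 hypoxic (9.85 to 10.45) samples overlapped. These comparisons by age use the P30 samples behind the choice of the genes and were not tested. How large a share of all probes has no overlap between ages is not given here.

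Lgi1 signal in the P30 normoxic samples was 6.78, 7.96, 6.79 and 5.91 in numbers 2 to 5. In the P30 hypoxic samples it was 4.45, 4.52, 4.13, 5.09 and 5.51. All 5 hypoxic samples were below all normoxic ones, with a gap of 0.40, and normoxic sample 3 was the highest. Hypoxic samples 1 to 4 were under 5.48, the lowest quartile of all values, so the size of the P30 difference is uncertain. The means were 6.86 ± 0.84 (SD, n = 4) and 4.74 ± 0.55 (SD, n = 5), a log2 difference of -2.12 ± 0.35 (SE), or 4.35-fold. That SE shares its spread with the P8 samples (SD 0.37 in normoxia and in hypoxia), so it understates the spread at P30. Among the 4704 probes it was the 4th lowest difference at P30, and in the authors' deposited table it had place 4 by p (signed fold -4.35, p = 5.20e-05, q = 0.277). Leaving out single samples gave -2.44 to -1.75.

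At P8 the direction for Lgi1 was the same, but the difference did not pass the test. Signal was 3.99, 4.29, 4.69 and 4.78 in the normoxic samples and 2.80, 3.82, 3.29, 3.34 and 3.47 in the hypoxic samples, in the order of their numbers. The ranges were 0.17 apart and did not overlap, as in 8.93% of probes with hypoxia lower. The log2 difference was -1.09 ± 0.35 (SE), with a 95% interval of -1.82 to -0.37 and a limma adjusted p of 0.0859. This adjusted p counts 22205 tests though only 4704 probes were fitted, so it leans high. The fit takes its spread from all 4 groups, P30 samples included. With only the P8 groups in the fit the limma adjusted p was 0.0577. Limma called 5.57% of all probes lower at P8, or 17.6% with arrays centred. The gene passed with arrays centred (-1.46, adjusted p = 0.0145), when adjusted over the 4704 probes alone (0.0182), and without P30 normoxic sample 3, which enters only through the shared spread (-1.09, 0.0449). It did not pass in the other alternatives (adjusted p up to 0.262) or without hypoxic samples 4 and 5 (-1.07, 0.176). All P8 values of Lgi1 lay under 5.48, the lowest quartile of all values, and no background level was used here, so the size of a difference between such dim signals is uncertain.

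Lgi1 signal was higher at P30 than at P8 in each oxygen group. The difference was 2.42 in normoxia and 1.40 in hypoxia, with no overlap of ranges. The share of all probes without overlap between ages is not given here. All P8 values and P30 hypoxic samples 1 to 4 were under 5.48, so the size of either difference is uncertain. With arrays centred, the difference in hypoxia was 1.87. In order from low to high the means were 3.34 in P8 hypoxia, 4.44 in P8 normoxia, 4.74 in P30 hypoxia and 6.86 in P30 normoxia. The P8 normoxic samples (3.99 to 4.78) and the P30 hypoxic samples (4.13 to 5.51) overlapped, and no other pair of groups did.

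Bdh1 signal was spread widely in the P30 normoxic samples, at 8.94, 10.17, 6.97 and 7.94 in numbers 2 to 5. In the P30 hypoxic samples it was 6.47, 7.44, 7.14, 6.43 and 6.34. The groups overlapped: hypoxic samples 2 and 3 were above normoxic sample 4, and the other 3 hypoxic samples were below all normoxic ones. The means were 8.51 ± 1.37 (SD, n = 4) and 6.76 ± 0.49 (SD, n = 5), a log2 difference of -1.74 ± 0.46 (SE), or 3.34-fold. That SE shares its spread with the P8 samples (SD 0.70 in normoxia and 0.33 in hypoxia), so it understates the spread of the P30 normoxic samples. The difference was -1.19 without normoxic sample 3 and -2.25 without normoxic sample 4. The authors' deposited table gives averages of 6.41 in hypoxia and 8.47 in normoxia, which differ by -2.06 (signed fold -4.16, p = 0.00500, q = 0.560). Bdh1 was at place 191 by p and 27 by size of fold there.

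At P8, Bdh1 signal was 4.04, 4.51, 3.43 and 5.07 in the normoxic samples and 4.16, 4.48, 3.95, 4.76 and 4.06 in the hypoxic samples. The hypoxic samples lay within the range of the normoxic ones. The log2 difference was 0.02 ± 0.46 (SE), with a 95% interval of -0.95 to 0.99 and a limma adjusted p of 1.00, and its sign changed over alternatives (-0.35 to 0.29). This interval leaves room for a difference of almost 1 log2 unit either way. Through the shared spread it also takes in the wide spread of the P30 normoxic samples. All P8 values were under the lowest quartile of 5.48.

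Bdh1 had the largest difference with age of the 3 genes with values per sample. The P30 mean lay above the P8 mean by 4.24 in normoxia, or 18.9-fold, and by 2.48 in hypoxia, or 5.59-fold. All P30 samples were above all P8 samples. The share of all probes without overlap between ages is not given here. The smallest P30 value was 6.34 and the highest P8 value 5.07. All P8 values were thus under 5.48, the lowest quartile of all values, and no background level was used. The size of the differences with age is therefore uncertain. With arrays centred the difference in hypoxia was 2.955. In order the means were 4.26 in P8 normoxia, 4.28 in P8 hypoxia, 6.76 in P30 hypoxia and 8.51 in P30 normoxia, and neighbours of the same age overlapped.

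Bdh1 and Lgi1 shared this pattern of higher signal at P30 and a lower P30 signal in hypoxia, so their start regions are shown together. Lgi1 (chr19:38264437-38264736, plus strand, GRCm38.p6) has 54.0% G and C and 13 CpG and holds no match to ACGTG or GCGTG. RefSeq has 2 start regions for Bdh1, at chr16:31422047-31422346 and chr16:31428503-31428802, both on the plus strand. Each holds 1 match to GCGTG on the minus strand, read as CACGC and printed in capitals, with its first base at position -29 from the start in the first and at 37 in the second. GCGTG on either strand is in 32.4% of all windows, so a match is common and is not a measured site.
Lgi1: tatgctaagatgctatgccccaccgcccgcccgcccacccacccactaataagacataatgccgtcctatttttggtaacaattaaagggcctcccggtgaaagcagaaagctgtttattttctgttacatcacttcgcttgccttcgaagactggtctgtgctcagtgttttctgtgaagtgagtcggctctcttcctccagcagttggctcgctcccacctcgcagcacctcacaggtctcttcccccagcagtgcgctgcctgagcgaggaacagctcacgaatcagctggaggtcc
Bdh1, upstream start: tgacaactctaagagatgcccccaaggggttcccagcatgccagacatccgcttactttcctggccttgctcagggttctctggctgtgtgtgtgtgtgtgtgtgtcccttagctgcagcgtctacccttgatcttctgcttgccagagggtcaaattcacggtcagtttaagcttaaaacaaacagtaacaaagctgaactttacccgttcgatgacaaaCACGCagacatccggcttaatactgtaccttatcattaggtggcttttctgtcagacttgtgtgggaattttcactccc
Bdh1, downstream start: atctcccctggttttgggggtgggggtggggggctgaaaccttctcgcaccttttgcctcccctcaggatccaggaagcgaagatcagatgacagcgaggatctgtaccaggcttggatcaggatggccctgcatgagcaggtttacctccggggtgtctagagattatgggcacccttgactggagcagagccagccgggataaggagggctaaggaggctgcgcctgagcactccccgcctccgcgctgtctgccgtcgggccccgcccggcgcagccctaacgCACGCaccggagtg

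Man2a2 is known here only by the averages of the authors' deposited table. They give 10.96 with an SD of 0.93 in P30 normoxia and 9.06 with an SD of 0.96 in P30 hypoxia, which differ by -1.90 on the log2 scale. The authors' averages need not be sample means: for Bdh1 at P30 they differ by -2.06, against -1.74 for the means of the samples. The signed fold of Man2a2 was -3.72, at place 28 by size. The authors' q was 0.642, at place 551 by p. The spread in both groups was larger than that of Wsb2, and whether samples overlapped was not analysed here. Of the 4 genes, Wsb2 and Lgi1 are also in the authors' P8 list, which holds 4351 probes or 19.6% of the array. That table gives Wsb2 a signed fold of 2.20 (q = 0.00150) and Lgi1 one of -2.13 (q = 0.118), each in its P30 direction. Of the 376 probes in both of the authors' lists, 135 have the same sign in both, 54 of them higher and 81 lower in hypoxia.

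**Figure D2:**
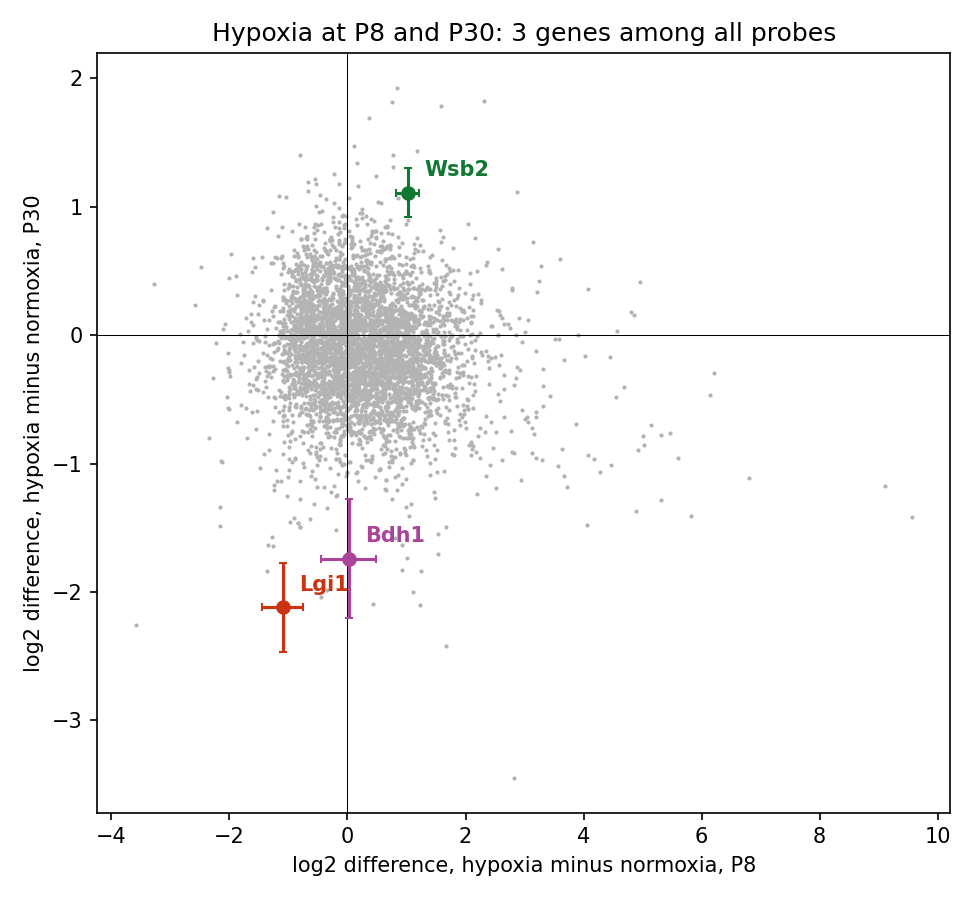
Log2 difference between hypoxia and normoxia at P8 (horizontal axis) and at P30 (vertical axis), for 4704 probes in grey and for 3 genes in colour with SE bars. Wsb2 is higher at both ages (1.02 and 1.11), Lgi1 is lower at both (-1.09 and -2.12), and Bdh1 differs at P30 (-1.74) with a P8 value of 0.02.

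Within groups the genes did not share 1 order of samples. P30 normoxic sample 3 was the highest in its group for both Bdh1 (1.67 above the group mean) and Lgi1 (1.10 above), while Wsb2 there was 0.09 below its mean. P30 normoxic sample 4 was the lowest for Bdh1 (1.53 below) and near the mean for Lgi1 (0.07 below). Among the P30 hypoxic samples, number 2 was the highest for Bdh1 and number 5 the highest for Lgi1.

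**Figure D3:**
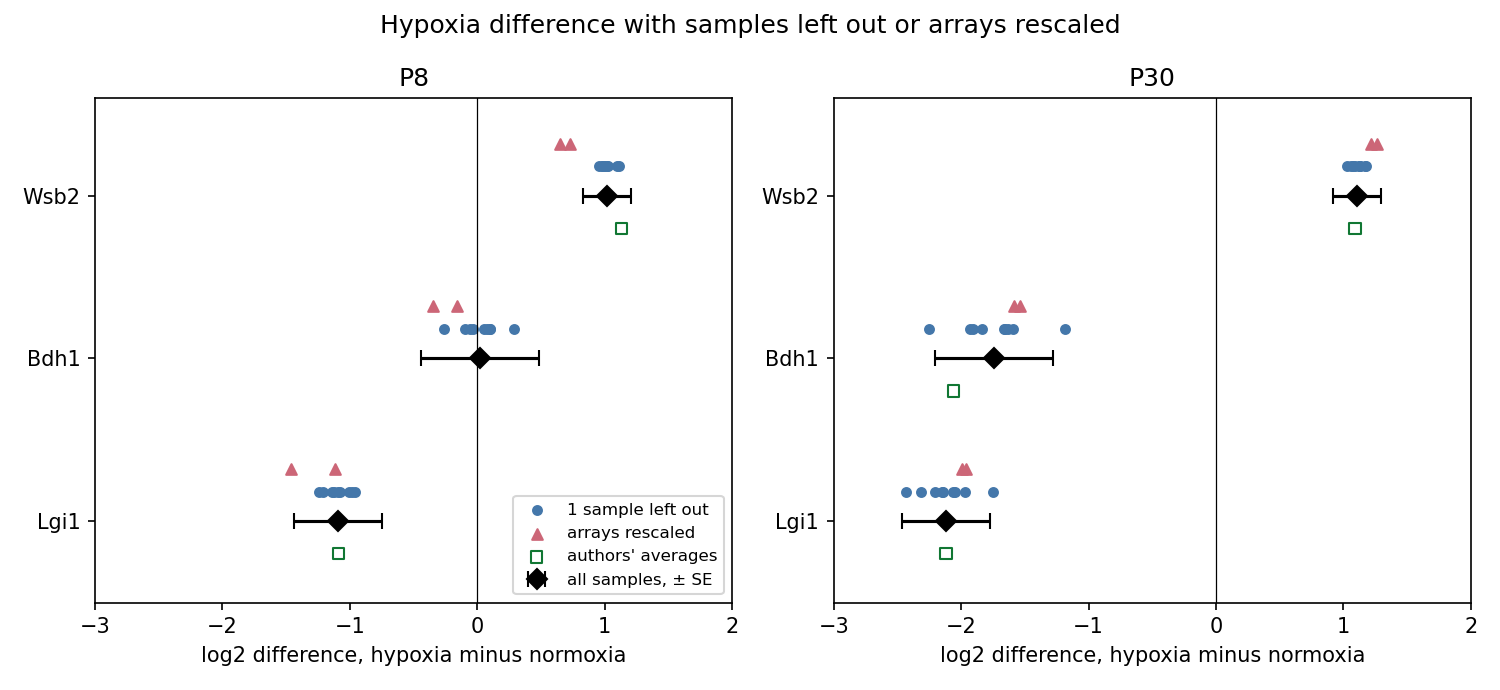
Log2 difference between hypoxia and normoxia (horizontal axis) of 3 genes at P8 and P30. Diamonds are all samples ± SE, dots leave out 1 sample each, triangles rescale the arrays, and squares are the authors' averages. Bdh1 at P30 moves most with the samples used (-2.25 to -1.19), and Wsb2 at P30 moves least (1.03 to 1.18).

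Sample means of the marker lists of other cell types overlapped between the P30 groups. Limma called 0 of 30 measured markers at P30, as it called 0% of all 4704 probes. Of the 30, 0 had an unadjusted p under 0.05, against 13.9% of all probes. Sample means in normoxia and hypoxia were 6.46 to 7.27 and 6.58 to 6.94 for 7 of 10 macrophage markers, 14.56 to 15.87 and 14.55 to 15.75 for 4 of 12 fibroblast and mural markers, and 12.52 to 13.26 and 12.59 to 13.28 for 3 of 10 endothelial markers. They were 4.50 to 6.21 and 4.64 to 5.35 for 5 of 9 erythroid markers, and 3.71 to 4.41 and 3.75 to 4.39 for 4 of 8 neutrophil markers. Of 17 Schwann and neuron markers, of interest because Lgi1 is a gene of neural tissue, only 2 had values, Tubb3 and Uchl1. Their sample means were 3.45 to 3.915 and 3.755 to 4.335. These means, the neutrophil means and the Fgb values below were all under 5.48, the lowest quartile of all values. Overlap between signals so dim says little about those cells. The single measured markers of hepatocytes (Fgb, 3.36 to 3.97 and 3.31 to 3.78) and of adipocytes (Cidea, 7.45 to 8.26 and 7.17 to 8.15) overlapped too, and no atrial or lung marker had a value.

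At P8 the markers did move with the groups. Limma called higher in hypoxia 4 of 7 macrophage, 4 of 5 erythroid, 3 of 4 neutrophil, 2 of 3 endothelial and 2 of 2 Schwann and neuron markers, against 15.2% of all probes. It called lower 3 of 3 cardiomyocyte, 2 of 4 fibroblast and mural and 1 of 3 endothelial markers, against 5.57%. Macrophage means were 4.78 to 5.37 in normoxia and 6.03 to 7.18 in hypoxia, and erythroid means 5.71 to 8.34 and 8.36 to 9.67. The part of these shifts in the P8 values of Wsb2 and Lgi1 was not tested.

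By the smallest root mean square difference between profiles centred on their own means, over 18 samples and 2567 other named probes, the genes most like Wsb2 were Eif3l, Spdl1 and Nudt5. Eif3l, a subunit of the translation initiation factor eIF3, differed from Wsb2 by 0.31 log2 units, Spdl1, a protein of the spindle and kinetochore, by 0.32 and Nudt5, a hydrolase of nucleotide sugars, by 0.32, where a flat profile would differ by 0.67. Their P8 and P30 differences in hypoxia were 0.73 and 0.53 for Eif3l, 0.60 and 0.73 for Spdl1 and 0.71 and 0.67 for Nudt5. With arrays centred, the P8 differences were 0.36 for Eif3l, 0.23 for Spdl1 and 0.345 for Nudt5. All values of Spdl1 were under 5.48, the lowest quartile of all values. So were all P30 normoxic values of Nudt5 (4.37 to 4.69).

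The genes most like Lgi1 were Mia2, Psme4 and Arhgap20, at 0.66, 0.67 and 0.68 log2 units, against 1.34 for a flat profile. Mia2 acts in export from the endoplasmic reticulum, Psme4 is a proteasome activator and Arhgap20 is a GTPase-activating protein. Their P8 and P30 differences in hypoxia were -0.75 and -0.996 for Mia2, -0.73 and -1.03 for Psme4 and -1.24 and -1.17 for Arhgap20. Those most like Bdh1 were Acad11, an acyl-CoA dehydrogenase, Phyhd1, a dioxygenase, and Aqp7, a channel for water and glycerol, at 0.83, 0.85 and 0.90 log2 units against 1.87 for a flat profile. They were 2.82 to 3.05 higher at P30 than at P8 in normoxia, against 4.24 for Bdh1, and 0.75 to 0.83 lower in hypoxia at P30. At P8 their differences in hypoxia were -0.19 for Acad11, 0.07 for Phyhd1 and -0.97 for Aqp7, against 0.02 for Bdh1. These 9 genes were chosen by their profiles over all 18 samples, P8 and P30 alike, so their values are a description with no test. All P8 hypoxic values of Arhgap20 (3.83 to 4.65) were under 5.48, the lowest quartile of all values, so the size of its P8 difference is uncertain.

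Lists of genes from the pathways of the 4 were read next, with the 4 themselves left out. Limma called 0 of the 17 list genes with values at P30, as it called 0% of all probes. Of the 17, 2 had an unadjusted p under 0.05, against 13.9% of all probes. At P8, among all 4704 probes, limma called 20.8% in either direction, and the median log2 difference over all probes was 0.18. Of 13 ketone body genes, 1 had values, and it rose at P8. Slc16a6, a transporter of 3-hydroxybutyrate in the zebrafish liver, rose by 1.76 ± 0.39 (SE, limma adjusted p = 0.0114), but not without normoxic sample 24 (1.525, adjusted p = 0.0548). At P30 it was at 0.24 and did not pass. In the authors' deposited table Slc16a1, the monocarboxylate transporter MCT1, was 1.61-fold higher at P30 (q = 0.720).

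Of 34 other N-glycan genes, 9 had values, all of them higher in hypoxia at P8, as were 58.5% of all probes, and 8 of them lower at P30, as were 59.7% of all probes. With arrays centred, 8 of the 9 were higher at P8 (42.8% of all probes) and 5 of the 9 lower at P30 (43.9%). At P8 their median difference was 0.75, and 1 was called, or 7 when adjusted over the 4704 probes alone and 2 without hypoxic samples 4 and 5. It was B4galt5, a galactosyltransferase that makes lactosylceramide and can extend glycans, which rose by 1.73 ± 0.32 (SE, limma adjusted p = 0.00305, at most 0.0152 over its alternatives). At P30 the median was -0.20, against -0.10 over all probes, and none was called. Mgat2, the enzyme that acts next after the step of Man2a2, was at 0.87 at P8 and -0.78 at P30, and neither passed. The paralog Man2a1 had only averages. The authors' deposited table gives it a signed fold of 1.80 at P8 (q = 0.160), and it is not in the P30 list.

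Of 41 SOCS box and cullin ligase genes other than Wsb2, 5 had values, and at P8 1 rose and 1 fell. Asb5, a muscle gene with ankyrin repeats and a SOCS box, fell by 2.01 on the log2 scale (SE 0.33, limma adjusted p = 0.00139, at most 0.0132 over its alternatives). All P8 hypoxic values of Asb5 (4.25 to 4.97) were under 5.48, the lowest quartile of all values, so the size of its fall is uncertain. Asb13 rose by 0.87 ± 0.23 (SE, limma adjusted p = 0.0332). The call of Asb13 ended without normoxic sample 13, 22, 23 or 24 or hypoxic sample 6, 7 or 8 (0.74 to 0.92, adjusted p up to 0.105), with only the P8 groups in the fit (0.0952), with quantile normalization (0.54, 0.369) and with arrays centred (0.50, adjusted p = 0.450, from 0.00703). Socs2, a feedback inhibitor of growth hormone signalling, was at -0.77 ± 0.30 (SE) at P30 and did not pass. Asb12 was also lower at P30 in the authors' deposited table (signed fold -2.11, q = 0.659), and 0 of these list genes were higher there. The paralog Wsb1 had no values here.

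Of 21 genes around Lgi1 (other LGI proteins, ADAM receptors and Kv1 channels), 2 had values and both rose at P8. Adam23, a receptor of Lgi1, went from 3.26 ± 0.31 (SD, n = 4) to 4.88 ± 0.61 (SD, n = 5), a log2 difference of 1.62 ± 0.285 (SE) with a limma adjusted p of 0.00225, at most 0.0236 over the alternatives that kept it. Adam23 and Lgi3 are dim, with 17 of 18 samples each under the lowest quartile of 5.48, and the filter on dim probes removed both. Lgi3, a paralog of Lgi1, rose by 1.24 ± 0.33 (SE, limma adjusted p = 0.0338), against -1.09 for Lgi1. The call of Lgi3 ended without normoxic sample 13, 22, 23 or 24 or hypoxic sample 6, 7 or 8 (1.05 to 1.30, adjusted p up to 0.126), with quantile normalization (1.14, 0.0847) and with arrays centred (0.87, adjusted p = 0.175, from 0.00715). At P30 Adam23 was at 0.15 and Lgi3 at 0.18, while Lgi1 was at -2.12. The authors' deposited table also lists the Kv1 subunit Kcnab1 (signed fold -1.79, q = 0.560) and the receptor homolog Adam11 (-1.48, q = 0.715) as lower at P30. At P8 it lists Adam22 as higher (1.72, q = 0.205) and the Kv1 channel Kcna6 as lower (-1.3, q = 0.215).

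**Figure D4:**
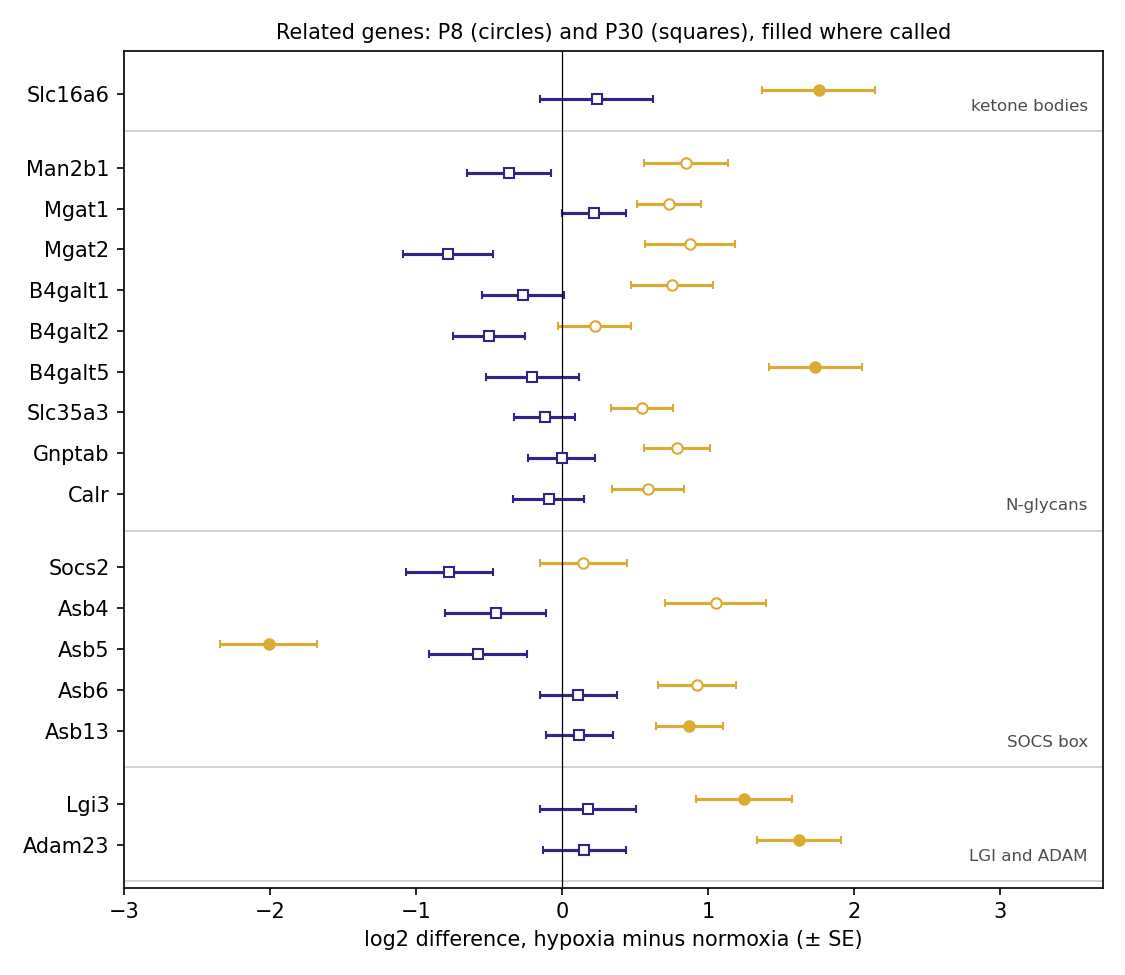
Log2 difference between hypoxia and normoxia ± SE (horizontal axis) of list genes with values per sample, at P8 (circles) and P30 (squares), filled where the limma adjusted p was under 0.05. Filled symbols are found at P8 only in this plot, with Slc16a6 at 1.76 the highest and Asb5 at -2.01 the lowest.

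The nearest protein-coding genes in RefSeq on GRCm38.p6, 2 on each side of each of the 4 genes, were looked up in the authors' lists. Of these 16 neighbours, 2 (12.5%) are in the P30 list, which holds 6.86% of the array, and 5 (31.25%) are in the P8 list, which holds 19.6% of it. Vsig10, next to Wsb2, has a signed fold of -1.91 at P30 in the authors' deposited table (q = 0.715), opposite to Wsb2. Hddc3, next to Man2a2, has one of 1.48 (q = 0.698), opposite to Man2a2. In the P8 list of the authors' deposited table, Pebp1 (1.86), Rfc5 (2.35) and Ksr2 (-1.32) lie near Wsb2 (2.20), Fra10ac1 (-1.42) lies near Lgi1 (-2.13) and Fes (1.38) near Man2a2, each given as its signed fold.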

How the data were processed

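RNA of mouse hearts was labelled with biotin and hybridised to Clariom S arrays if its RNA integrity number was above 6, per the labels' protocols. The authors deposited 1 table of log2 signals, already normalized. No label or header states how, and Affymetrix Expression Console appears in the submitters' processing notes. The authors' deposited gene lists give log2 averages and SDs and a fold change, here read as a score whose minus sign marks lower signal in hypoxia. The p-value and q-value in the authors' lists come from an unstated test. In them 3 p-values stored as clock times were converted back.

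Probes were named from the gene lists: 2568 of 4704 have 1 symbol, 105 several and 2031 none here. Limma 3.58.1 in R 4.3.3 (lmFit, contrasts.fit, eBayes) was fitted to all 4 groups, with 14 residual and 5.98 prior degrees of freedom. Benjamini-Hochberg adjustment used 22205 tests, worked out from the authors' p, q and ranks, at a threshold of 0.05. Only the 4704 probes had p-values in the fit. The other probes were counted as tests without a small p, so the adjusted p-values lean high. The script was tested on simulated data. Start regions are RefSeq's, on GRCm38.p6, and 3 of the 4 genes matched. Genes, lists and tests were chosen with earlier results of these data known. Named genes were the 4, the 3 nearest profiles to each, paralogs and the called list genes of largest statistic. Slc16a1, Mgat2, Socs2, Asb12, Kcnab1, Adam11, Adam22, Kcna6 and the neighbours were added after their values were seen. The number of arrays limits the precision. Same-numbered P30 samples did not deviate together (correlations of -0.168 to 0.0743 over probes), so no block was used. The enrichment tables were not used, and some list genes are not reported here and are left out of the counts.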

Additional observations from a re-analysis of the deposited data

Results flagged for a closer look

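In the groups of 4 or 5 samples behind the genes named in the text, 4 of 72 had a highest or lowest sample far from the rest by Dixon's test at the 95% level, and chance alone gives about 1 in 20. The 1 among the 12 groups of Wsb2, Bdh1 and Lgi1 was P8 normoxic sample 13 for Wsb2, at 10.08 against 9.69 to 9.74. Without it the P8 difference of Wsb2 was 1.11 (limma adjusted p = 0.00270). The others were P30 normoxic sample 5 for Slc16a6 (7.13 against 6.30 to 6.44), P8 normoxic sample 24 for Lgi3 (3.12 against 3.60 to 3.68) and P8 hypoxic sample 6 for Spdl1 (5.02 against 4.58 to 4.66).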

How the results depend on the processing

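Of 158 recomputed differences of Wsb2, Bdh1 and Lgi1 (between oxygen groups or ages), 144 kept their direction and side of the threshold or moved by less than the spread between replicates. The rest were as follows, and the cause was not tested. At P8, Wsb2 was at 0.65 with arrays centred, no longer called, and Lgi1 at -1.46, then called; Lgi1 was also called adjusted over the 4704 probes alone (-1.09). Bdh1 at P8 turned to -0.16 with quantile normalization, -0.35 with arrays centred and -0.0058 without hypoxic samples 4 and 5, and ran from -0.26 to 0.29 over samples left out (normoxic 13 or 23 and hypoxic 5 or 7 turned it). P30 minus P8 in hypoxia of Wsb2 was -0.37 (quantile) and -0.225 (centred), of Bdh1 2.955 and of Lgi1 1.87 (centred). Among the similar genes at P8, Acad11 turned to 0.0325 without hypoxic samples 4 and 5 and ran from -0.41 to 0.10 over samples left out; Phyhd1 turned to -0.35 (quantile) and -0.30 (centred) and ran from -0.12 to 0.24.

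Probes called higher at P8 were 714, and 1280 adjusted over the table alone, 339 with quantile normalization, 322 with arrays centred, 329 with only the P8 groups, and 432 to 743 over samples left out. Those called lower were 262, and 658, 541, 830, 100 and 134 to 258. At P30, adjusting over the table alone called 2 higher and 2 lower, and samples left out 0 to 1 and 0 to 2. List genes called higher at P8 were 7 for N-glycans and 3 for SOCS box genes over the table alone, 2 for N-glycans without hypoxic samples 4 and 5, and 0 for SOCS box and 1 for LGI genes with either rescaling. With the replicate number as a block over P30 numbers 2 to 5, the differences were 1.03 for Wsb2, -1.67 for Bdh1 and -2.05 for Lgi1, and limma called 0 probes. The samples share only a number. Alternatives for the ages, the named list genes and the similar genes, and counts without hypoxic samples 4 and 5, were chosen after seeing the data.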
